A study of Homo sapiens with 20 samples.

Results

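The genes described here are 56 developmental transcription factors outside the HOX clusters, chosen by name from the PAX, sine oculis (SIX2, SIX3 and SIX6), LHX, NKX, IRX, DLX, TBX, FOX and GATA families, other homeobox genes and the bHLH genes TWIST1, TWIST2 and HAND2. A chromatin loop was assigned to a gene when either of its anchors, pieces of chromatin about 5 kb long, lay within 3 kb of an annotated hg19 start site of that gene. By this rule 41 of the 56 genes had at least 1 listed anchor pair, and the pairs numbered 1820 of the 572000 in the merged lists. Across the genome 10025 of 20162 protein-coding genes had one.

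The lists came from Hi-C, a sequencing assay in which DNA ends that are near each other in fixed nuclei are joined and the joints are read. H4 and 42MGBA are human glioblastoma (GBM) cell lines that carry an endogenous truncating mutation of STAG2. Gene editing corrected that mutation in H4 88-1, derived from H4, and in 42MGBA 53-1, derived from 42MGBA, and each derivative is 1 clone. An H4 or 42MGBA system below means a parental line together with its derivative. The labels name no treatment.

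Developmental transcription factors switch on cell fate programs in the embryo, and many of them sit in gene-poor stretches of the genome with enhancers far away. Cohesin, a ring that contains either STAG1 or STAG2, holds such distant sites together, and loops commonly end where the CTCF protein is bound to DNA. In GBM some of these factors are used again as markers of neural or mesenchymal programs.

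Loop strength is the signal that the authors obtained after bias correction and enhancement, and each list held the 300000 strongest anchor pairs of 1 line with 2 replicates pooled. With 1 value per line there was no replicate spread and no test, so every difference below describes these lists. A pair missing from a list was given that list's lowest strength, namely 4.14 in H4 and 4.44 in H4 88-1, or 4.49 in 42MGBA and 4.28 in 42MGBA 53-1, and its fold is then a lower bound where the listed strength is above that value. The log2 ratio of corrected to mutant strength had a median of 0.09 over all pairs in the H4 lines and -0.08 in the 42MGBA lines, so the whole lists were shifted in opposite directions. By this filling alone a pair listed in H4 88-1 and not in H4 is above 0, and one listed in 42MGBA and not in 42MGBA 53-1 is below 0. Pairs at 1 gene are neighbors that share reads and smoothing and are not replicates. The lists hold contacts and no expression, so the cell type was not checked against marker genes.

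The stretch of DNA just before the start site of LHX8 is shown first, since this gene had the fewest CG dinucleotides around its start. It covers 120 bases before the canonical start, read 5′ to 3′ on the gene's strand from GRCh37, with CG dinucleotides in capitals.
LHX8, chr1:75599953-75600072, plus strand: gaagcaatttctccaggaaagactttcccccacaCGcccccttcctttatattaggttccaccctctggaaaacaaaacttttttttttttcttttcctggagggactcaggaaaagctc
The stretch held 1 CG dinucleotide. In windows of 300 bases around the start, members had a median of 23.5 CG dinucleotides with a range of 4 to 50, and LHX8 was the lowest. All 19856 protein-coding starts read the same way had a median of 23. Members with a listed pair had a median of 24 and members without one had a median of 22, so CG content around the start did not separate them.

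A short form of the core CTCF motif, searched on both strands, was found in 13 of the 105 promoter anchors of members (12.4%). It was present in 6.86% of anchors at any protein-coding start. Among the 847 anchors at the far end of the members' pairs, called landing anchors here, 30 held it (3.54%). The share was 3.81% of anchors at no start and 4.61% of all anchors. Some landing anchors do lie at a start, so neither set is matched to them. A longer and stricter form of the motif, which can contain parts of the short one, was in 0 member anchors and in 0.0576% of all anchors. Stretches of 30 bases around a match are shown for loops described below, with the match in capitals and read along the strand of the motif.
DLX2 promoter anchor, chr2:172968744-172968773, minus strand: gcacactgcCCACCAGGTGGCgccacaaag
TBX2 promoter anchor, chr17:59474295-59474324, minus strand: cgggttgagCCTCCAGGTGGCagggggtcc
TBX3 promoter anchor, chr12:115122245-115122274, plus strand: acagagtcgCCTCTAGGTGGCttatcgaga
LHX8 landing anchor, chr1:75237788-75237817, plus strand: cacaattatCCACCAGGTGGCagagtacta
LHX9 landing anchor, chr1:197588341-197588370, plus strand: tacaatatgCCACTAGGAGGCattcaaata
NKX2-2 landing anchor, chr20:20822932-20822961, plus strand: gaactccacCCTCCAGGTGGCatcctactc
DLX6 landing anchor, chr7:95704908-95704937, plus strand: agacgaggaCCACGAGGTGGCaggggttgc
FOXC2 landing anchor, chr16:87339558-87339587, plus strand: ctctgtgagCCACGAGGAGGCtgcaacacc
TBX15 landing anchor, chr1:118694138-118694167, plus strand: ttgaagtagCCGCAAGGCGGCagtattgtg
TWIST2 landing anchor, chr2:239892346-239892375, minus strand: aggggttggCCACTAGGTGGCagaggagag
A match is a description of these letters, and the binding of CTCF to them was not measured here.

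The members' pairs were concentrated in few genes. FOXC2, DLX2, FOXF2, FOXF1, TWIST1, DLX1 and TBX3 held 1070 of the 1820 pairs (58.8%). FOXC2, a regulator of lymphatic and blood vessel development, had 234 pairs in the merged lists. Of its pairs, 188 were listed in H4 and 217 in H4 88-1, against 105 in 42MGBA and 138 in 42MGBA 53-1. Pairs at members numbered 1058 in H4, 1064 in its derivative, 972 in 42MGBA and 896 in its derivative.

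**Figure D1:**
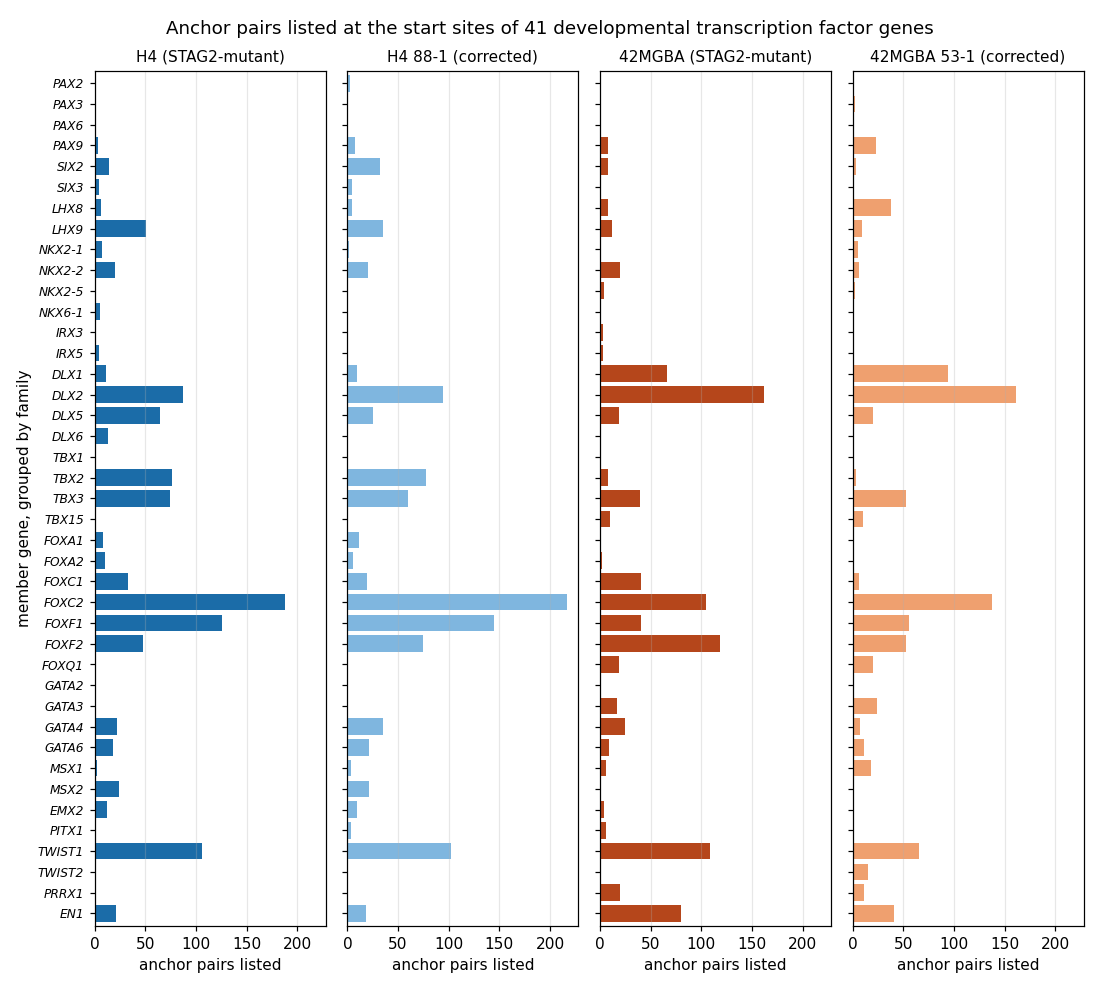
Bars give the number of anchor pairs listed at each of 41 member genes, grouped by family, in 1 panel per line. FOXC2 had the longest bar in both H4 lines (188 and 217) and DLX2 in both 42MGBA lines (162 and 161).

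Of the 41 genes, 19 were listed in all 4 lines, 6 in the H4 system only and 10 in the 42MGBA system only. The 6 genes of the H4 system were DLX6, FOXA1, GATA2, NKX6-1, PAX2 and SIX3. The 10 genes of the 42MGBA system were FOXQ1, GATA3, IRX3, NKX2-5, PAX3, PAX6, PRRX1, TBX1, TBX15 and TWIST2. No pair was listed in any line at PAX7, SIX6, LHX1, LHX2, IRX1, IRX2, IRX6, TBX5, TBX18, OTX1, OTX2, GSC, HAND2, EN2 or BARX1. A gene without a listed pair may still have loops that are weaker than the lowest strength of the lists. Some of the genes listed in 1 system rest on few weak pairs. GATA2, PAX6 and TBX1 had 1 pair each, PAX3 had 2, and PAX2 and IRX3 had 3 each, at 4.98 or lower. The same counts by line and system were not taken over all genes, so they are not read as particular to the members.

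The loops of these genes were long and often ended outside genes. The median distance between anchors was 398 kb, with an interquartile range of 262 to 530 kb, against 261 kb for pairs at any protein-coding start. Only 4.01% of the members' pairs were shorter than 100 kb, against 13.1% at any start. The landing anchor touched no protein-coding gene in 1059 of 1635 pairs that had no start there (64.8%, against 52.5% at any start). Both anchors lay at a start in 185 pairs (10.2%, against 20.2%). No pair joined 2 different members.

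Landing anchors gathered into 107 regions, of which 57 held no protein-coding gene. Many genes looped to one side only. FOXF1 had 155 pairs, all landing upstream of its start, and DLX5 had 66 pairs, all landing downstream. Neighboring members divided their surroundings in different ways. The starts of FOXF1 and FOXC2 lie 56.3 kb apart on chromosome 16, and they shared 2 of 88 and 125 landing anchors. DLX1 and DLX2, whose starts are 18.2 kb apart on chromosome 2, shared 40 landing anchors, which were 40 of 41 for DLX1 and 40 of 98 for DLX2.

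The first comparison asks which loops of these genes differed in strength after STAG2 correction in H4. Over 1.5-fold higher strength in H4 88-1 was found in 49 of 1287 member pairs (3.81%), against 3.27% of pairs at any protein-coding start and 2.92% of all pairs. Over 1.5-fold higher strength in H4 was found in 17 (1.32%), against 0.595% at any start and 0.722% of all pairs. The 49 pairs belonged to FOXF1 (17), FOXC2 (12), FOXF2 (7), GATA4 (7), TBX3 (3), TWIST1 (2) and SIX2 (1). The 17 pairs belonged to DLX5 (12), LHX9 (2), FOXC2 (2) and FOXF1 (1). After subtracting the median shift of all pairs the split turned, with 20 pairs higher in H4 88-1 and 28 higher in H4.

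The median over a gene's pairs was over 1.2-fold higher in H4 88-1 for 5 of 28 members with at least 5 pairs, against 18.4% of all such genes. These were SIX2, GATA4, SIX3, FOXF2 and FOXC2. No member was over 1.2-fold higher in H4, against 1.31% of all genes. After subtracting the median of all pairs, of these 5 only SIX2 stayed past 1.2-fold (0.30), and DLX5 passed it in the other direction (-0.30). The median log2 ratio was above 0 in 20 of the 28 members and below 0 in 8 (28.6%). Of all such genes, 23.2% had a median below that of MSX2, which was -0.01. The median of the members' medians was 0.13, against 0.11 for all genes.

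**Figure D2:**
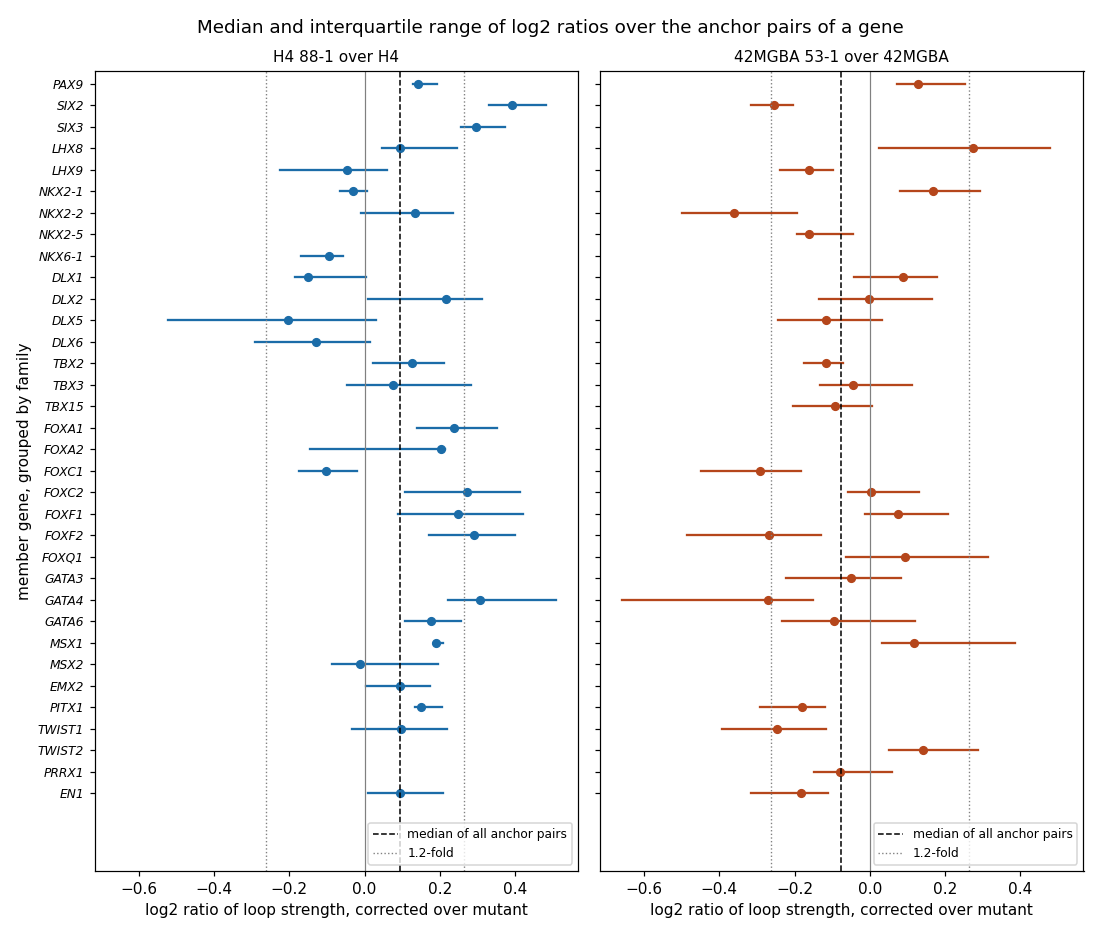
Points give the median log2 ratio of corrected to mutant loop strength over the pairs of each member with at least 5 pairs, and lines its interquartile range, for H4 88-1 over H4 (left) and 42MGBA 53-1 over 42MGBA (right). The dashed line is the median of all pairs (0.09 and -0.08) and dotted lines mark 1.2-fold. FOXF2 and GATA4 lay past 1.2-fold on opposite sides in the 2 panels.

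FOXC2 had the largest number of pairs and the strongest of all member pairs. Its promoter anchor at chr16:86594342-86599196 joined chr16:87089968-87094913, 492 kb downstream in a stretch with no protein-coding gene. The strength there was 19.6 in H4 and 23.8 in H4 88-1, and 13.5 in 42MGBA and 15.2 in 42MGBA 53-1, higher in each corrected line than in its parent and higher in both H4 lines than in both 42MGBA lines. Over 231 pairs of the H4 lines the median log2 ratio was 0.27, with an interquartile range of 0.11 to 0.41, and 192 of the pairs were above 0. Of the 231 pairs, 43 were listed in H4 88-1 only and are above 0 by the filling. The median was 0.11 after subtracting the median of chromosome 16.

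Within the FOXC2 locus the pairs did not all move the same way. The largest rise was at a site 190 kb downstream, where the strength was 4.61 in H4 and 8.64 in H4 88-1, a 1.88-fold difference. The pair was not listed in 42MGBA and had a strength of 4.87 in 42MGBA 53-1. The largest fall was at a landing anchor 738 kb downstream that holds the start of C16orf95 and the FOXC2 motif match shown above. There the strength was 7.56 in H4 and 4.60 in H4 88-1, 1.64-fold lower in the corrected line, and neither 42MGBA line listed the pair.

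FOXF1, which directs the mesenchyme of lung and gut, lies next to FOXC2 and loops in the other direction. Its strongest pair joined chr16:86545897-86550055 to chr16:86104473-86109235, 437 kb upstream. The strength was 22.0 in H4 and 20.8 in H4 88-1, against 9.82 in 42MGBA and 11.9 in 42MGBA 53-1. This strongest site thus differed between the systems by more than between the lines of a pair. Of its 17 pairs higher in H4 88-1, 16 lay in 1 region between 97.5 and 233 kb upstream, where the median log2 ratio was 0.50. Over all 155 pairs the median was 0.25, and 0.08 after subtracting the median of chromosome 16. The largest rise was 1.85-fold, with H4 at 4.60 and H4 88-1 at 8.53. In the region between 252 and 500.1 kb upstream, which holds the strongest site, the median log2 ratio was 0.18.

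FOXF2, the paralog of FOXF1 on chromosome 6 that acts in palate and pericyte development, had 48 pairs listed in H4 and 75 in H4 88-1. Its median log2 ratio over 77 pairs was 0.29, with 76 of 77 above 0, and it was 0.22 after subtracting the median of its chromosome. Of the 77 pairs, 29 were listed in H4 88-1 only and are above 0 by the filling. Over the 46 pairs listed in both lines the median was 0.35. The largest rise was 1.75-fold at a site 468 kb upstream, from 4.37 in H4 to 7.63 in H4 88-1. FOXC1, its neighbor and a regulator of the anterior eye and of vessels, had 33 listed pairs in H4 and 19 in H4 88-1. For FOXC1 the median was -0.10, with 7 of 33 pairs above 0.

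GATA4, a zinc finger factor of heart and endoderm, had 22 pairs in H4 and 35 in H4 88-1. Its strongest pair landed 281 kb downstream, where H4 had 5.12 and H4 88-1 had 10.4, a 2.04-fold difference. The promoter anchor of that pair lies at an alternative start site near the end of the gene, so its anchors are 200 kb apart. Neither 42MGBA line listed this pair. From another GATA4 promoter anchor the same landing anchor was listed at 5.31 in H4 and 6.75 in 42MGBA. Over 37 pairs the median log2 ratio was 0.31, and 0.19 after subtracting the median of chromosome 8.

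SIX2, which maintains kidney progenitors, had the highest median of the members. It had 14 pairs in H4 and 32 in H4 88-1, and the median log2 ratio over 32 pairs was 0.39, with an interquartile range of 0.33 to 0.48. All 32 pairs were above 0 and landed in the region of SRBD1, between 434 and 505 kb upstream. Of these, 18 were listed in H4 88-1 only and are above 0 by the filling. Over the 14 pairs listed in both lines the median was 0.41. At its strongest site, inside an intron of SRBD1, the strength was 6.35 in H4, 9.60 in its derivative, 5.58 in 42MGBA and 4.31 in its derivative. SIX3, a forebrain and eye factor next to SIX2, landed in CAMKMT on its other side, with H4 at 5.02 and H4 88-1 at 6.89 at its strongest pair and a median log2 ratio of 0.30 over 5 pairs.

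DLX5 moved against these genes. DLX5 and DLX6 shape the skull, limb and ventral forebrain, and enhancers of this locus are known within DYNC1I1. The strongest DLX5 pair joined chr7:96654609-96659574 to an intron of DYNC1I1 at chr7:95543074-95547628, 1109 kb downstream. The strength was 11.7 in H4 and 5.52 in H4 88-1, and 5.98 in 42MGBA and 6.88 in 42MGBA 53-1, so that H4 alone was high, 2.11-fold above its corrected derivative. At the adjacent landing anchor the strength was 10.8 in H4 and 4.84 in H4 88-1, a 2.24-fold difference. DLX5 had 64 listed pairs in H4 and 25 in H4 88-1.

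The difference at DLX5 was uneven along the locus. In the region about 1109 kb from the start the median log2 ratio over 15 pairs was -0.61, and in the region 956 kb from the start it was -0.41 over 26 pairs. At 611 kb, outside protein-coding genes, it was 0.09 over 13 pairs. At 1022 kb, 9 pairs were listed in H4 and 0 in H4 88-1, yet the median was 0.03. At 846 kb it was -0.05 over 3 pairs. The gene's median was -0.20 over 66 pairs, short of 1.2-fold, and -0.41 over the pairs listed in both lines. Of the 66 pairs, 41 were listed in H4 only. Such a pair is above 0 by the filling where its H4 strength is under the lowest strength of the H4 88-1 list. DLX6 was listed in H4 only, with 13 pairs of up to 6.61 in strength at the anchor with the DLX6 motif match, and 10 of its 10 landing anchors were shared with DLX5.

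DLX1 and DLX2, which act in interneuron precursors, had 0 pairs past 1.5-fold in either isogenic pair. The strongest DLX2 pair joined chr2:172967258-172972243, the anchor with the DLX2 motif match above, to the start of DYNC1I2 at chr2:172561820-172566575. The values were 17.6 in H4 and 15.9 in H4 88-1, against 16.9 in 42MGBA and 18.4 in 42MGBA 53-1, within 1.11-fold in each isogenic pair. DLX2 had a median log2 ratio of 0.22 over 102 pairs in the H4 lines. DLX1 reached the same DYNC1I2 anchor at 8.04 in H4, 1.15-fold above its derivative, and at 7.39 in 42MGBA and 8.71 in 42MGBA 53-1. Its median in the H4 lines was -0.15 over 11 pairs, with 3 above 0. After subtracting the median of the chromosome, DLX1 was at -0.27, past 1.2-fold, and DLX5 at -0.20. NKX6-1, a factor of motor neuron and islet precursors, had 5 pairs of up to 5.55 in H4 and a median of -0.09.

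LHX9, a LIM homeobox factor of gonad and brain, had 2 pairs over 1.5-fold higher in H4, and both landed on the anchor at chr1:197586125-197590791 in DENND1B that holds the LHX9 motif match. At its strongest pair, from chr1:197888799-197893494 to that anchor, the strength was 10.7 in H4, 7.13 in its derivative, 6.69 in 42MGBA and 5.75 in its derivative. In that landing region the median log2 ratio in the H4 lines was -0.35 over 21 pairs. In a second region of DENND1B, 383 kb upstream, it was -0.02 over 21 pairs, so the lower strength was seen at one landing site and not at the other.

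**Figure D3:**
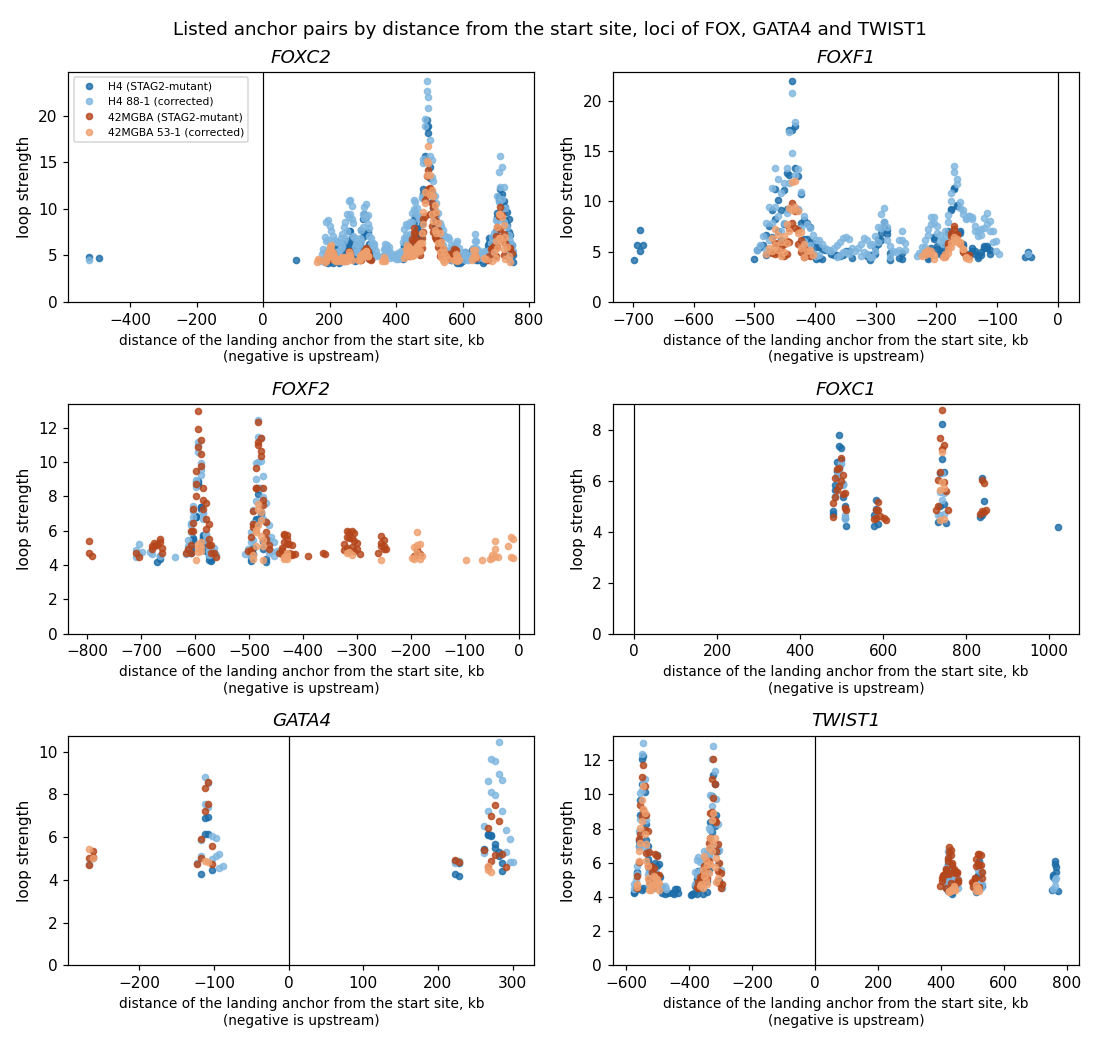
Each point is a listed anchor pair of FOXC2, FOXF1, FOXF2, FOXC1, GATA4 or TWIST1, with the distance of the landing anchor from the start site in kb (negative is upstream) on the x axis and loop strength on the y axis, colored by line. The 42MGBA 53-1 points of FOXF2 peaked at 7.56, against 13.0 in 42MGBA.

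With the z-score of the residual from a regression through the origin over the merged 100000 strongest pairs of each line, cut at 1.96, 15 of 562 member pairs were higher in H4 88-1 and 14 were higher in H4. At any start 2.32% of pairs were higher in H4 88-1 and 1.82% in H4, and over all pairs 1.94% and 2.17%. The 15 pairs were of FOXF1, FOXC2, GATA4 and FOXF2. The 14 were of DLX5 (10), LHX9 (2) and FOXC2 (2). DLX5 had the lowest z-score, -3.95, at its strongest pair, and GATA4 reached 2.96 at its own. This cut selects high absolute differences, and TBX3, TWIST1 and SIX2 had no pair past it.

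The second comparison asks the same question in the 42MGBA lines. Over 1.5-fold higher strength in 42MGBA 53-1 was found in 6 of 1245 member pairs (0.482%), against 0.439% at any start and 0.485% of all pairs, and all 6 belonged to LHX8. Over 1.5-fold higher strength in 42MGBA was found in 49 pairs (3.94%), against 3.04% at any start and 3.4% of all pairs. These belonged to FOXF2 (25), GATA4 (7), NKX2-2 (4), TWIST1 (4), FOXC1 (3), EN1 (3) and TBX3 (3). After subtracting the median shift of all pairs, 13 were higher in 42MGBA 53-1 and 32 in 42MGBA.

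Among 27 members with at least 5 pairs, the median was over 1.2-fold higher in 42MGBA 53-1 for LHX8, against 0.959% of all genes. It was over 1.2-fold higher in 42MGBA for NKX2-2, FOXC1, GATA4 and FOXF2, against 13.7% of all genes. After subtracting the median of all pairs, LHX8 (0.35) and NKX2-2 (-0.29) kept the call, and FOXC1, GATA4 and FOXF2 lost it. With the median of the chromosome or of pairs of similar size subtracted, 0 members were past 1.2-fold in 42MGBA. The median was below 0 in 18 of the 27 members (66.7%). Of all such genes, 67.1% had a median below that of DLX2, which was -0.002. The median of the members' medians was -0.09, against -0.08 for all genes. By z-score 11 of 383 pairs were higher in 42MGBA 53-1, against 1.49% at any start and 1.61% of all pairs, and they were of LHX8 (4), FOXC2 (3), DLX2 (2), FOXF1 (1) and FOXQ1 (1). The 13 pairs higher in 42MGBA were all of FOXF2, against 2.12% at any start and 2.45% of all pairs.

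FOXF2 had the largest differences of any member in the 42MGBA lines. At its strongest pair, from chr6:1392047-1396958 to a stretch without protein-coding genes at chr6:793865-798612, 594 kb upstream, the strength was 8.65 in H4 and 11.0 in H4 88-1, and 13.0 in 42MGBA and 5.23 in 42MGBA 53-1. The 2.48-fold lower strength in 42MGBA 53-1 had a z-score of -4.16, while in the H4 lines the corrected line was the higher one. FOXF2 had 118 pairs in 42MGBA and 53 in 42MGBA 53-1. In the landing region between 560.2 and 617 kb upstream the median log2 ratio was -0.62 over pairs listed in either line, and 16 of the 25 pairs called at this gene lay there. FOXF1, its paralog, had its largest 42MGBA difference in the other direction, with 8.99 in 42MGBA, 1.34-fold more in 42MGBA 53-1 and a z-score of 2.37.

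The shift at FOXF2 was not seen over its whole neighborhood. Close to the gene, between 39.0 and 68.2 kb upstream, 8 pairs of up to 5.43 in strength were listed in 42MGBA 53-1 only. Over all 137 pairs the median log2 ratio was -0.27, with an interquartile range of -0.49 to -0.13. It was -0.09 after subtracting the median of chromosome 6, so much of the median was shared with that chromosome. FOXC1, on the same chromosome, had 40 pairs in 42MGBA and 6 in 42MGBA 53-1. At its strongest pair, 743 kb downstream, FOXC1 had 8.24 in H4 and 6.33 in H4 88-1, and 8.82 in 42MGBA and 7.17 in 42MGBA 53-1. A pair 498 kb downstream, within GMDS, was at 6.93 in 42MGBA and unlisted in 42MGBA 53-1, at least 1.62-fold lower. The median of FOXC1 was -0.29 and became -0.11 after the same subtraction.

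FOXQ1, an epithelial forkhead factor whose start is 77.5 kb from that of FOXF2, went the other way. Its strongest pair joined neighboring anchors 4.52 kb apart beside the gene, with a strength of 6.39 in 42MGBA and 9.25 in 42MGBA 53-1, and no H4 line listed it. In 3 of its pairs both anchors lay within 3 kb of its single annotated start. The median log2 ratio of FOXQ1 was 0.09 over 26 pairs, and 0.27 after subtracting the chromosome's median.

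LHX8, which specifies cholinergic neurons of the basal forebrain, was the only member with pairs over 1.5-fold higher in 42MGBA 53-1. It had 6 pairs in H4 and 5 in H4 88-1, against 8 in 42MGBA and 38 in 42MGBA 53-1, with highest strengths of 4.91, 5.31, 5.17 and 8.03 in the same order. Its strongest pair joined chr1:75600889-75605627 to the anchor at chr1:75237113-75241759 that holds the LHX8 motif match, 355 kb upstream. The strength was 5.09 in 42MGBA and 8.03 in 42MGBA 53-1, and the pair was in neither H4 list. In other pairs the same landing anchor was listed at up to 4.90 in H4 and 5.31 in H4 88-1. At the adjacent anchor, which holds the start of TYW3, the pair was listed in 42MGBA 53-1 only, at 7.79, at least 1.73-fold higher than in 42MGBA.

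The median log2 ratio of LHX8 was 0.27 over 38 pairs, with an interquartile range of 0.03 to 0.48, and 0.34 after subtracting the median of chromosome 1. The 6 pairs rest on 3 promoter anchors and 2 landing anchors. When only the outermost 5′ end of the gene was used, 0 of them remained. The promoter anchor of the strongest pair lies within 3 kb of the canonical start, whose upstream stretch is shown above.

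NKX2-2, a factor of the ventral neural tube and of glial precursors, had 20 pairs in H4, 20 in its derivative, 20 in 42MGBA and 6 in its derivative. Its strongest pair joined chr20:21490957-21495575 to chr20:20815104-20819868, 677 kb downstream and outside protein-coding genes. The strength was 6.90 in H4 and 6.82 in H4 88-1, and 7.66 in 42MGBA and 4.36 in 42MGBA 53-1, so that 42MGBA 53-1 alone was low. The next landing anchor, with the NKX2-2 motif match, had strengths of 7.16 in H4, 6.40 in H4 88-1 and 7.64 in 42MGBA and was not listed in 42MGBA 53-1, at least a 1.79-fold difference. The median log2 ratio of the gene was -0.36 over 20 pairs, and -0.23 after subtracting the median of chromosome 20. A second landing region 280 kb from the start, at KIZ, had a median of -0.13.

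GATA4 had 25 pairs in 42MGBA and 7 in 42MGBA 53-1. At a landing anchor 108 kb upstream the strength was 6.96 in H4 and 8.56 in H4 88-1, against 8.56 in 42MGBA and 4.84 in 42MGBA 53-1, 1.77-fold lower in the corrected line. The promoter anchor of this pair also lies at an alternative start site near the end of the gene, and its anchors are 184 kb apart. The median log2 ratio of GATA4 was -0.27 over 25 pairs, and -0.15 after subtracting the chromosome's median. SIX2 had 8 pairs in 42MGBA and 3 in 42MGBA 53-1, with a median of -0.26 that fell just short of 1.2-fold.

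TWIST1, a bHLH factor of cranial and limb mesenchyme, had 106 pairs in H4 and 102 in H4 88-1, and 109 in 42MGBA and 65 in 42MGBA 53-1. Its strongest pair, 547 kb upstream, had strengths of 12.3 in H4, 13.0 in its derivative, 11.7 in 42MGBA and 10.5 in its derivative. Larger differences lay on the other side of the gene, within HDAC9, where enhancers of TWIST1 are known. At 427 kb downstream the strength was 5.50 in H4 and 6.43 in H4 88-1, and 6.94 in 42MGBA and 4.35 in 42MGBA 53-1, 1.59-fold lower in 42MGBA 53-1 than in 42MGBA. The gene's median log2 ratio was 0.10 in the H4 lines and -0.25 in the 42MGBA lines.

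EN1, a factor of the midbrain and hindbrain border, had 21 pairs in H4 and 18 in H4 88-1, against 80 in 42MGBA and 41 in 42MGBA 53-1. Its strongest pair, 624 kb downstream, was listed in all lines at 9.77 in H4, 10.7 in its derivative, 12.2 in 42MGBA and 10.3 in its derivative. A pair 350.3 kb downstream was listed in 42MGBA only, at 6.90, at least 1.61-fold above 42MGBA 53-1. The region between 388 and 504 kb downstream held 32 listed pairs in 42MGBA and 21 in 42MGBA 53-1, against 0 in H4 and 1 in H4 88-1.

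TBX3, a T-box factor of limb and mammary gland, had its strongest pair 1069 kb upstream, at 6.68 in H4 and 7.31 in H4 88-1, and 8.95 in 42MGBA and 7.13 in 42MGBA 53-1. It had 74 pairs in H4 and 60 in H4 88-1, against 39 in 42MGBA and 53 in 42MGBA 53-1. The 3 TBX3 pairs higher in H4 88-1 landed about 467 kb upstream, with the largest at 4.78 in H4 and 7.35 in H4 88-1. The 3 higher in 42MGBA landed about 1069 kb upstream, so the calls in the isogenic pairs came from different landing regions.

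Smaller genes with higher medians in 42MGBA 53-1 did not reach 1.2-fold. NKX2-1, a ventral forebrain and lung factor, had a median log2 ratio of 0.17 over 5 pairs, and its strongest was at 5.78 in 42MGBA 53-1 and unlisted in 42MGBA. TWIST2 had 0.14 over 15 pairs, all listed in 42MGBA 53-1 and 1 in 42MGBA, with its strongest, 6.08, at the anchor with the TWIST2 motif match. PAX9 and MSX1, which act together in tooth development, had medians of 0.13 and 0.12, and their listed pairs numbered 8 and 6 in 42MGBA and 23 and 18 in 42MGBA 53-1. The strongest pair of PAX9 was at 6.43 in 42MGBA 53-1 and unlisted in 42MGBA, and that of MSX1 was at 5.02 in 42MGBA and 7.02 in 42MGBA 53-1, short of 1.5-fold. NKX2-1 and PAX9, neighbors on chromosome 14, shared 3 landing anchors within an intron of SLC25A21, which were 3 of 5 for NKX2-1 and 3 of 7 for PAX9.

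In 21 members with at least 5 pairs in both comparisons, 11 had a median above 0 in the H4 lines and below 0 in the 42MGBA lines, 2 the reverse, 5 were above 0 in both and 3 below 0 in both. After subtracting the median of all pairs in each comparison, 12 had opposite signs and 9 the same. These sign counts were not taken over all genes. The whole lists were shifted upward in the H4 lines and downward in the 42MGBA lines, so the counts are not read as particular to the members. FOXF2 and GATA4 passed 1.2-fold in opposite directions, higher in H4 88-1 and lower in 42MGBA 53-1, against 2.73% of all genes. The reverse pattern was seen in 0 members, against 0.021% of all genes. No member passed 1.2-fold in the same direction in both, against 0.189% and 0.378% of all genes. FOXC2, FOXF1 and FOXF2 were the members with z-score calls in both comparisons.

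The third comparison sets the H4 system against the 42MGBA system, where a pair was called when the lower of the 2 strengths in one system exceeded the higher in the other by over 1.5-fold. Of 1820 pairs, 59 were higher in both H4 lines (3.24%), against 1.26% at any start and 1.32% of all pairs. They were of TBX2 (23), FOXF1 (19), FOXC2 (9), LHX9 (4) and MSX2 (4). In both 42MGBA lines 8 were higher (0.44%), against 1.32% at any start and 1.27% of all pairs, and they were of DLX2 (6) and EN1 (2). The 2 lines of a system share their parent and are not independent.

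TBX2, a T-box repressor of heart and limb, showed the clearest difference. It had 76 pairs in H4, 78 in its derivative, 8 in 42MGBA and 3 in its derivative. Its strongest pair joined chr17:59470304-59475307, the anchor with the TBX2 motif match, to a start of BCAS3 at chr17:59073587-59078552, 401 kb upstream. The strength was 12.1 in H4 and 11.3 in H4 88-1, and neither 42MGBA line listed the pair. From another TBX2 promoter anchor the same landing anchor was at 8.82 in H4, 10.3 in H4 88-1 and 4.50 in 42MGBA 53-1. Downstream, at NACA2, 18 pairs were listed in H4, 24 in H4 88-1 and 0 in both 42MGBA lines.

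FOXF1 had the largest median difference, with a log2 ratio of 0.40 over 155 pairs, against 0.01 for all pairs of chromosome 16. TBX2 followed with 0.35, MSX2 with 0.31, FOXA2 and FOXA1 with 0.28, and FOXC2 with 0.26. The interquartile ranges of these 6 genes overlapped, but they are spreads over neighboring pairs and no error of a median, and the order was not tested. The medians of FOXF1, TBX2, MSX2, FOXA2 and FOXA1 were over 1.2-fold, 5 of 35 members against 3.55% of all genes. MSX2, a regulator of skull growth, had 24 pairs in H4 and 21 in H4 88-1 but 0 in 42MGBA and 1 in 42MGBA 53-1. Its strongest pair, 307 kb upstream, was at 8.49 in H4 and 9.02 in H4 88-1, and at 4.29 in 42MGBA 53-1. FOXA1, a pioneer factor of endoderm, was listed in the H4 system only, and its strongest pair was at 5.81 in H4 and 7.64 in H4 88-1. FOXA2, its relative, was at 6.35 in H4 and 7.60 in H4 88-1 at its strongest pair, 250 kb downstream, which neither 42MGBA line listed. From the adjacent promoter anchor the same landing anchor was listed at 6.42 in H4, 7.44 in H4 88-1 and 5.28 in 42MGBA.

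On the other side only TBX15 passed 1.2-fold, 1 of 35 against 4.75% of all genes. TBX15, a factor of skeleton and adipose tissue, had a median log2 ratio of -0.30. Its strongest pair landed in SPAG17, 836 kb downstream, at the anchor with the TBX15 motif match, with strengths of 6.54 in 42MGBA and 6.17 in 42MGBA 53-1 and no listing in either H4 line. DLX2 followed with -0.25, LHX8 with -0.20, PAX9 with -0.19, DLX1 with -0.18 and GATA3 with -0.17, and their interquartile ranges overlapped. GATA3, a factor of T cells and epithelium, was listed in the 42MGBA system only, with 17 pairs in 42MGBA and 24 in 42MGBA 53-1, and its strongest pair was at 6.49 and 5.44. DLX1 had 11 and 9 pairs in H4 and H4 88-1 and 66 and 94 in 42MGBA and 42MGBA 53-1, and 72 of its pairs landed between 56.9 and 173 kb upstream, a region with no listed pair in either H4 line.

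**Figure D4:**
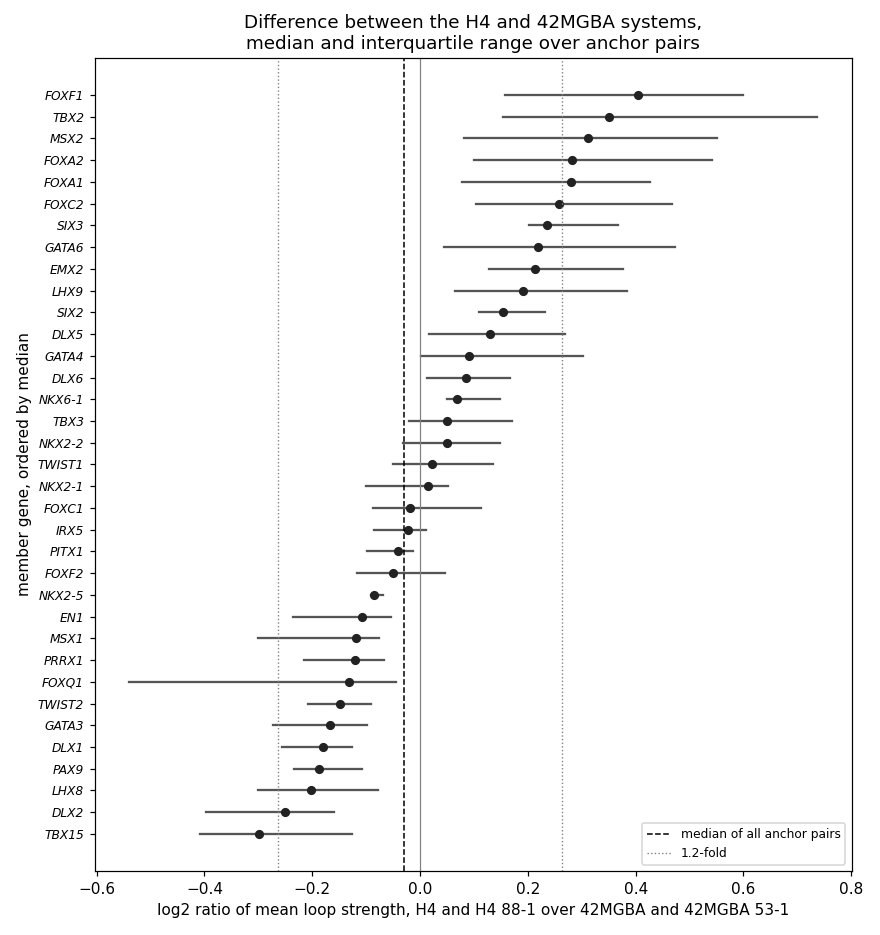
Points give the median log2 ratio of mean loop strength in the H4 system to that in the 42MGBA system over the pairs of each of 35 members with at least 5 pairs, and lines the interquartile range. Members ran from 0.40 at FOXF1 to -0.30 at TBX15, with the median of all pairs (-0.03) dashed and 1.2-fold dotted.

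**Figure D5:**
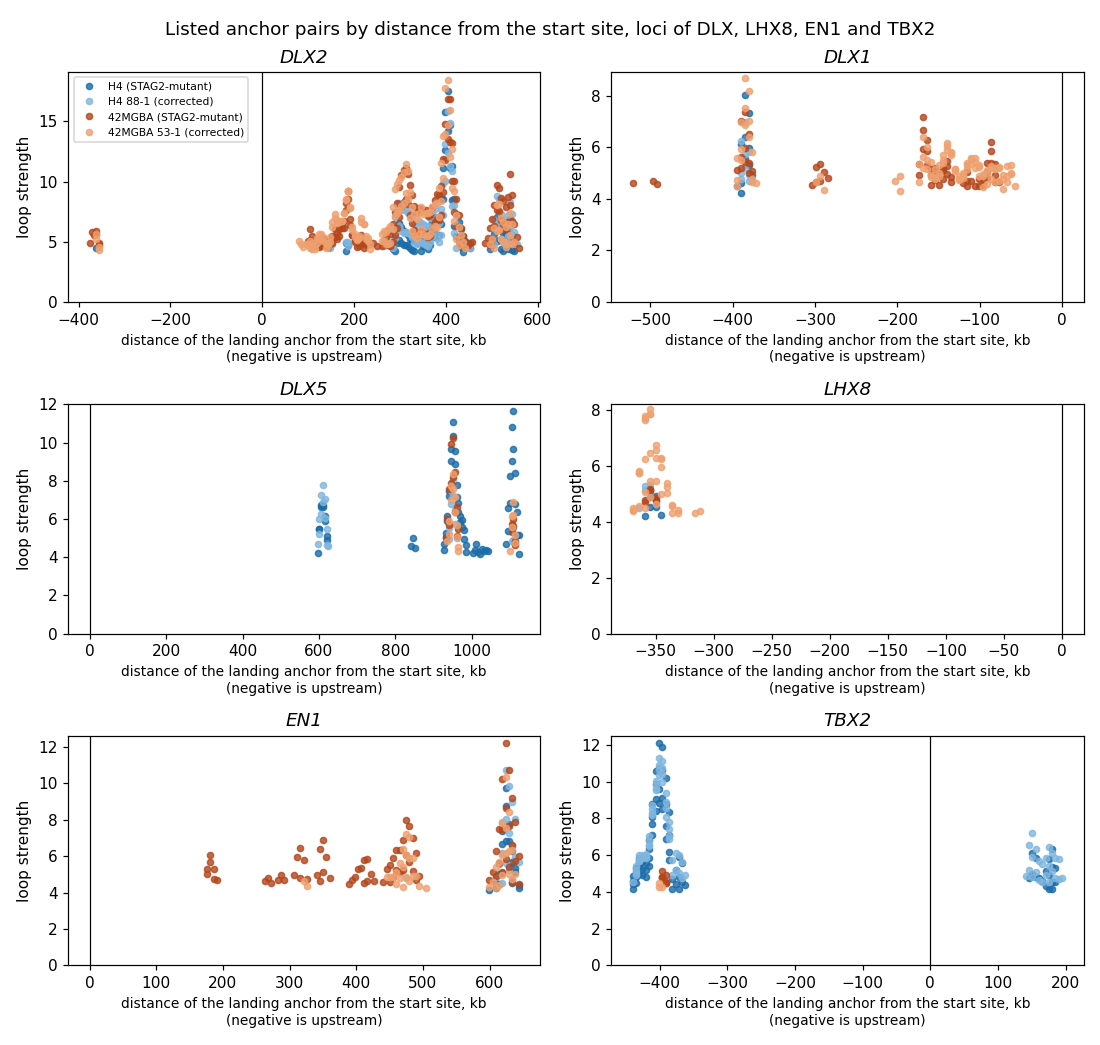
Each point is a listed anchor pair of DLX2, DLX1, DLX5, LHX8, EN1 or TBX2, with the distance of the landing anchor from the start site in kb (negative is upstream) on the x axis and loop strength on the y axis, colored by line. TBX2 points above 6 came from H4 and H4 88-1 only, and LHX8 points above 6 from 42MGBA 53-1 only.

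By role, members known for mesoderm, mesenchyme, limb, heart or face had a median log2 ratio of 0.20 over 876 pairs in the H4 lines and of -0.09 over 683 pairs in the 42MGBA lines. In the H4 lines 42 of the 876 were over 1.5-fold higher in H4 88-1 (4.79%, against 3.27% at any start) and 3 were higher in H4 (0.342%, against 0.595%). In the 42MGBA lines 0 of the 683 were higher in 42MGBA 53-1, against 0.439% at any start, and 35 were higher in 42MGBA (5.12%, against 3.04%). FOXF2 alone gave 25 of these 35.

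Members known for forebrain, eye or midbrain had medians of 0.03 over 330 pairs and -0.04 over 468 pairs. In the H4 lines 0 of the 330 were over 1.5-fold higher in H4 88-1, against 3.27% at any start. The 14 higher in H4 (4.24%, against 0.595%) came from DLX5 (12) and LHX9 (2). In the 42MGBA lines the 6 of 468 higher in 42MGBA 53-1 (1.28%, against 0.439%) were all of LHX8. The 7 of 468 higher in 42MGBA, where 3.04% were at any start, came from NKX2-2 (4) and EN1 (3). The 7 members known for endoderm, blood or epithelium, the GATA genes with FOXA1, FOXA2 and FOXQ1, had medians of 0.23 over 81 pairs and -0.09 over 94 pairs. The mesoderm group held 1088 of the 1820 member pairs and 55 of the 59 pairs that were higher in the H4 system. Those 55 were of TBX2 (23), FOXF1 (19), FOXC2 (9) and MSX2 (4). At any start 1.26% of pairs were higher in the H4 system.

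Other genes of the same families that are not members were read in the same way. Of 61 such genes, 30 had a listed pair, with a median log2 ratio of 0.12 over 806 pairs in the H4 lines and -0.12 over 786 pairs in the 42MGBA lines. In the H4 lines 36 of the 806 were over 1.5-fold higher in H4 88-1 (4.47%, against 3.27% at any start) and 1 was higher in H4 (0.124%, against 0.595%). In the 42MGBA lines 3 of the 786 were higher in 42MGBA 53-1 (0.382%, against 0.439%) and 69 in 42MGBA (8.78%, against 3.04%). Over 1.2-fold gene medians numbered 7 of 24 in H4 88-1, against 18.4% of all genes, and 9 of 23 in 42MGBA, against 13.7%. In the opposite direction there were 0 in either comparison, against 1.31% of all genes in H4 and 0.959% in 42MGBA 53-1.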

How the data were processed

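Hi-C on 8 libraries, 2 replicates of each of 4 lines, was used; 12 RNA-seq samples were not analysed here. The authors aligned reads to hg19 with Bowtie, removed duplicates, counted pairs between anchors of about 5 kb, corrected biases with HiCorr and enhanced the maps with DeepLoop. The deposited values are a signal, loop strength, for the 300000 strongest anchor pairs per line, with replicates pooled and no read counts, so depth per pair is unknown and no error or test could be given. Start sites came from GENCODE release 44 on GRCh37. Distances of landing anchors from the start were counted from the outermost 5′ end of the gene, also where the promoter anchor lies at another start site. Lists were merged, absent pairs were set to the list's lowest strength, and log2 ratios were taken per pair and as medians per gene (at least 5 pairs). Calls were 1.5-fold for a pair, 1.2-fold for a gene median, and a z-score of 1.96.

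The genes, gene lists and rules were chosen with earlier results of these data known. Named in depth were the members with most pairs, the 6 largest rises and falls of the median per comparison, those past the z-score in both comparisons, and the 6 largest differences between systems on each side. The edited gene STAG2 had 0 listed pairs. The shorter motif was added after the data were seen. A promoter table from RefSeq held 39 of the 56 members, under 80%, so that check was void and CG dinucleotides were counted on GRCh37. The procedure was tested on simulated data. Alternatives changed the centering, the treatment of absent pairs, the window, the fold, the regression and the number of pairs. Computations ran in Python (3.11.15) using pandas (2.3.3) and numpy (2.4.6), with scipy (1.17.1) for statistics and matplotlib (3.10.9) for plots.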

Additional observations from a re-analysis of the deposited data

Results flagged for a closer look

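FOXF2 and GATA4 stood out because their median after STAG2 correction passed 1.2-fold in opposite directions in the isogenic pairs. FOXF2 had a median log2 ratio of 0.29 in H4 88-1 over H4 and -0.27 in 42MGBA 53-1 over 42MGBA. GATA4 had 0.31 and -0.27. The difference between the comparisons was not tested, since each line has 1 pooled list, and 2.73% of all genes with at least 5 pairs in both comparisons showed the same pattern. The whole lists were shifted in the same opposite directions, by 0.09 and -0.08. After subtracting the median of each chromosome FOXF2 was at 0.22 and -0.09 and GATA4 at 0.19 and -0.15, and the part of the shift in these values was not tested further.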

How the results depend on the processing

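No paired analysis was possible because the replicates of each line were pooled in 1 list. Centering turned which side held more calls, for the pairs of the H4 lines and for the gene medians of the 42MGBA lines. With counts given as higher in H4 88-1, higher in H4, higher in 42MGBA 53-1 and higher in 42MGBA, the reported 49, 17, 6 and 49 pairs became 20, 28, 13 and 32 after centering on all pairs. Centering on each chromosome gave 17 for H4 88-1, 14 for 42MGBA 53-1 and 29 for 42MGBA, and centering on pairs of similar size gave 17, 13 and 30 for them. Requiring the anchor to overlap the start gave 25, 8, 2 and 15, a 10 kb window 105, 35, 18 and 112, and a 1.3-fold call 210, 54, 37 and 155. Pairs listed in both lines gave 9 for H4 and 25 for 42MGBA. The 5′ end alone gave 0 for 42MGBA 53-1. The z-score gave 15, 11 and 13 for the same lines, a regression with intercept 23, 17 and 14, and a z-score of the log ratio 10 for H4 88-1 and 21 for 42MGBA.

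For the systems, 59 and 8 pairs became 28 and 2 with overlap, 119 and 20 with 10 kb, 134 and 35 with 1.3-fold, and 24 and 2 when listed in all lines. Centering on chromosome or size gave 4 each for the 42MGBA system. Gene medians past 1.2-fold, 5 for H4 88-1, became 1 with each centering. The 0 for H4 became 1 with the mean, the sum, centering on all pairs or on chromosome, or pairs listed in both lines. The 1 for 42MGBA 53-1 became 2 centered on chromosome and 3 centered on size or listed in both lines. The 4 for 42MGBA became 1, 0 and 0 centered on all pairs, chromosome and size.

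Listed pairs with overlap numbered 523 in H4 and 522 in H4 88-1, and 437 in 42MGBA and 418 in 42MGBA 53-1, in that order with 10 kb 2084, 2143, 1820 and 1738, and in the strongest 100000 pairs 397, 472, 269 and 285. The other 36 recomputed counts stayed within 1.5 times the reported one. The lists set the limit on depth: a loop below the lowest listed strength cannot be told from no loop.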

Other observations

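A few members outside the rule for depth had loops in some lines and not in others; they are given as values chosen after the data were seen. PRRX1, a marker of mesenchyme, had 20 pairs in 42MGBA and 11 in 42MGBA 53-1, of which 8 joined its start to that of GORAB. EMX2, a factor of the dorsal forebrain, had 12 pairs in H4 and 9 in H4 88-1, and 4 in 42MGBA and 0 in 42MGBA 53-1. GATA6, which acts in heart and endoderm beside GATA4, was listed in all lines, with its strongest pair 394 kb downstream at 6.89 in H4 and 8.70 in H4 88-1, against 5.78 in 42MGBA and 5.03 in 42MGBA 53-1.

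PAX6, the eye field regulator, had 1 pair, at 4.29 in 42MGBA 53-1, and PAX3 had 2 there, at up to 4.44, both close to the lowest listed strength of 4.28. IRX3 and IRX5 shared 2 landing anchors, 2 of 2 for IRX3 and 2 of 5 for IRX5, at distances of 393 to 513 kb and 1032 to 1162 kb. Of the 1820 pairs, 661 (36.3%) were in 1 list only and 380 (20.9%) in all, against 40.0% and 20.4% at any start.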
